A study of Mus musculus with 10 samples.

Results

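The genes described here are 10 members of the transforming growth factor-beta (TGF-beta) pathway, among 23992 gene symbols measured in mouse Tregs (regulatory T cells, the Foxp3-expressing CD4 cells that restrain immune responses). They were chosen by symbol: the ligand Tgfb1, the genes Lrrc32, Itgb8 and Itgav that hold or release the latent ligand, the receptors Tgfbr1 and Tgfbr2, the transducer Smad3, the inhibitor Smad7, and the corepressors Ski and Skil. Each symbol was read from the transcript with the most reads, and all 10 passed the filter on low counts in every comparison below. RNA of 10 libraries of C57BL/6J mice was sequenced in 4 groups. Natural Tregs of wild-type spleen were kept for 24 h in culture with anti-CD3 and anti-CD28, a stimulus of the T cell receptor (TCR), together with the epithelial cytokine TSLP (TCR + TSLP, 2 libraries) or without it (TCR, 2 libraries). Tregs of the lungs of OVA-immunized mice carried a floxed Crlf2, the TSLP receptor gene, with Foxp3YFP-Cre (Crlf2-deleted, 3 libraries), or Foxp3YFP-Cre alone (control, 3 libraries, labelled wild-type). Both lung groups therefore shared the Cre transgene, expressed from Foxp3 and so in Tregs, and the immunization. The labels do not say that the libraries of a group are separate mice or cultures, nor which exons of Crlf2 are floxed.

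TGF-beta is secreted as a latent complex, in which the mature cytokine stays wrapped in its own propeptide. On Tregs this complex is held at the surface by GARP, the product of Lrrc32, and the integrin made of the Itgav and Itgb8 chains binds the propeptide and frees the cytokine. Freed TGF-beta brings together the receptor kinases Tgfbr2 and Tgfbr1, which phosphorylate Smad2 and Smad3. These enter the nucleus with Smad4, while Smad7 blocks the receptors and Ski and Skil hold Smad complexes in a repressive state. In Tregs the pathway is known for supporting Foxp3 and for restraining other T cells.

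The integrin site is shown because it is where the Itgb8 product, whose transcript differed between the lung groups, meets the Tgfb1 product. On GRCm38 the Tgfb1 codons for the integrin-binding Arg-Gly-Asp triplet lie on the plus strand in exon 5 of 7, at chr7:25697142-25697150, from codon 244 of 390. The coding stretch around them, spliced from the GENCODE annotation of the RefSeq transcript, has the triplet in capitals.
Tgfb1 integrin site: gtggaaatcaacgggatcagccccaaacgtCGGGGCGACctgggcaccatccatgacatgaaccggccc

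The promoter of Itgb8 is shown because Itgb8 was the member called in the lung comparison. It is the RefSeq window (GRCm38.p6) on the minus strand at chr12:119238227-119238526, with 250 bases before and 50 after the start, and its capitals mark CAGACA, a Smad-binding sequence.
Itgb8 promoter: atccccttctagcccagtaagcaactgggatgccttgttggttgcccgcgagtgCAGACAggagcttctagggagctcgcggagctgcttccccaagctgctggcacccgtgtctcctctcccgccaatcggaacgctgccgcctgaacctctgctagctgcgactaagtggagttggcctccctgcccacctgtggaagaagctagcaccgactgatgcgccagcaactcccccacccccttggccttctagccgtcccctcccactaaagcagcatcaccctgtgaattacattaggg

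The match starts at position -196 relative to the gene start. Windows of the same length were at hand for 7 of the 10 members, 8 windows in all. CAGACA, read on both strands, was in the Itgb8 window and in the window of a second Tgfbr1 start, against 21% of 32851 promoters of all genes. The STAT sequence TTCNNNGAA was in 0 of the 8 windows, against 8.3% of all promoters, and the palindromic Smad sequence GTCTAGAC also in 0, against 0.213%. These are letter matches and describe the windows only.

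Reads assigned to genes, with 1 transcript per symbol, were 27237313 to 51671901 in the spleen libraries and 1439675 to 18349039 in the lung libraries, of which control 2 was the smallest. Levels below are CPM after TMM scaling over all 10 libraries (normalised reads), and tests are edgeR quasi-likelihood tests with Benjamini-Hochberg adjustment and a threshold of 0.05. Crlf2 was at 8.45, 6.30 and 3.34 normalised reads in Crlf2-deleted libraries, against 86.1, 134 and 97.2 in control libraries (log2 fold change -4.16, SE 0.36, adjusted p = 0.00465). Foxp3 was present in every library, and lowest among the lung libraries in control 3, at 185 against 401 and 439 in the other control libraries. Control 3 also stood apart in markers of other cells. Its 5 B cell markers summed to 317 normalised reads, against 12.5 to 24.1 in Crlf2-deleted libraries and 17.4 and 18.8 in the other controls, and its 4 myeloid markers to 3974, against 861 to 898 in Crlf2-deleted libraries and 239 and 329 in the other controls. Its 5 CD8 T and NK markers summed to 125, against 8.73 to 23.1 in Crlf2-deleted libraries. The 5 lung epithelium markers summed to 2116 to 16730.4 in Crlf2-deleted and 15044 to 72748 in control libraries. Most of that sum was Scgb1a1, at 2039 to 16298 and 14652 to 71172. Endothelium markers ranged over 73.9 to 83.5 in Crlf2-deleted and 93.1 to 114 in control libraries. Pecam1 made up most of this sum, at 58.8 to 68.5 and 66.3 to 109.9. Vwf of that list was at 10.3, 13.3 and 8.45 in Crlf2-deleted libraries, against 0.744, 1.26 and 17.2 in control libraries. Fibroblast markers ranged over 0.147 to 8.73 and 1.88 to 34.0, and platelet markers over 1.45 to 5.25 and 2.51 to 20.6. In bulk RNA, fewer cells of a type and less RNA per cell cannot be told apart.

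**Figure D1:**
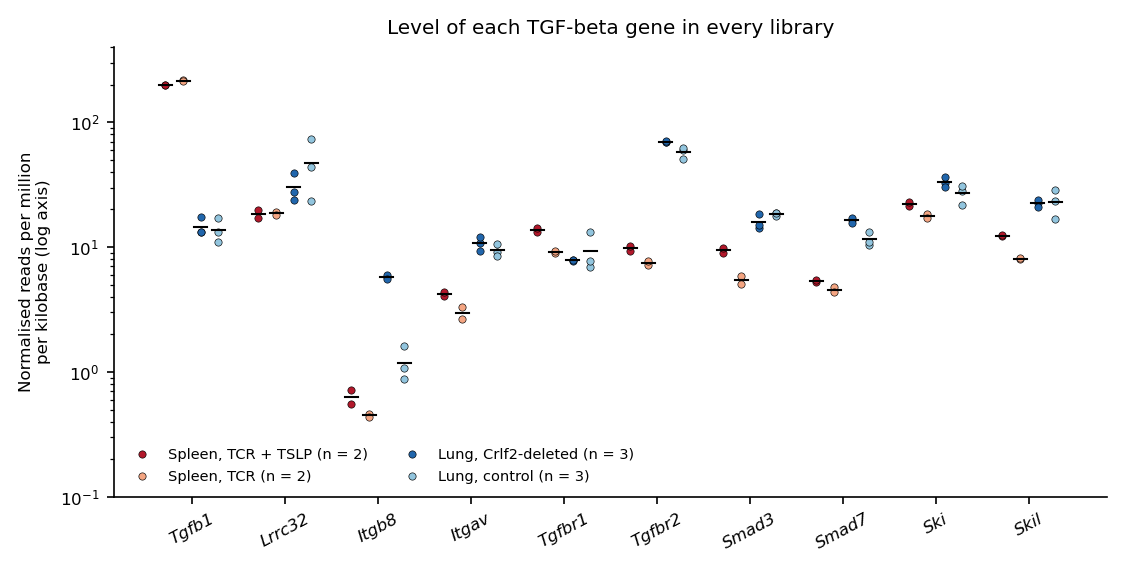
Level of each gene in every library, in normalised reads per kilobase of transcript on a log axis, with 1 point per library and a bar at the group mean. Tgfb1 is far above its lung level in both spleen groups, Tgfbr2 leads in lung, and Itgb8 is the lowest of the 10 genes in every group.

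Per kilobase of transcript, the order of the genes differed between spleen and lung. Tgfb1 was the highest of the 10 in spleen, with 214 ± 3.71 normalised reads per kilobase in the TCR group (SD, n = 2). It was the 7th at 14.6 ± 2.33 in Crlf2-deleted lung and the 6th at 13.7 ± 3.01 in control lung (n = 3 each). Tgfbr2 was the highest in lung, at 69.9 ± 0.922 in Crlf2-deleted and 57.5 ± 6.37 in control libraries, and the 6th in both spleen groups, at 9.74 ± 0.608 with TSLP and 7.42 ± 0.354 without. Itgb8 was the lowest in all 4 groups, at 0.635 ± 0.114 with TSLP, 0.451 ± 0.0168 without, 5.77 ± 0.223 in Crlf2-deleted and 1.19 ± 0.385 in control lung. Its partner chain Itgav was at 4.19 ± 0.225 with TSLP, 2.99 ± 0.455 without, 10.7 ± 1.36 in Crlf2-deleted and 9.40 ± 1.01 in control lung, so Itgb8 was the scarcer transcript of the pair in each group.

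The spleen cultures address what TSLP does to Tregs that receive a TCR signal. Both receptors, the transducer Smad3, the corepressor Skil and the integrin chain Itgav rose with TSLP, by 1.27-fold to 1.66-fold. The ligand Tgfb1 and its surface holder Lrrc32 did not pass the test. In all, 5 of the 10 members were called higher and 0 lower, with 6 higher and 0 lower at an unadjusted p under 0.05 and the same 5 and 0 in number by DESeq2. Across all 13214 genes tested, 45.8% were called, 22.7% higher and 23.1% lower. With the trends on transcript length and GC content removed, described below, 1 of the 10 members was higher, against 2439 of the 13214 genes, so on which side of the share of all genes the members lay depended on that choice. The median log2 fold change was 0.39 over the members and 0.01 over all genes.

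Smad3, the transducer of the activated receptors, changed most. It had 45.8 and 50.0 normalised reads in the TCR + TSLP libraries, against 25.9 and 30.0 in the TCR libraries. On the log2 scale the fold change was 0.73, with an SE of 0.11 and an adjusted p = 0.00138. Smad3 was higher in each TSLP library than in each TCR library, a separation found for 41.4% of all genes tested. It was called under every alternative setting, at 0.52 to 0.96.

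The type I receptor Tgfbr1 had 74.3 and 81.2 normalised reads with TSLP, against 50.6 and 53.1 without (log2 fold change 0.54, SE 0.09, adjusted p = 0.00294). The type II receptor Tgfbr2, which binds the ligand first, had 44.6 and 48.7 with TSLP, against 34.3 and 36.7 without (0.35, SE 0.10, adjusted p = 0.022). Both receptors were higher in each TSLP library than in each TCR library, as were 41.4% of all genes tested. Leaving out a spleen library leaves 1 library in its group, which is then assumed to vary like the other group, whose pair alone gives the spread. The TCR pair differed more (chi-square per degree of freedom 25.7) than the TCR + TSLP pair (5.80), and such fits called 3212 and 3761 genes without a TCR + TSLP library and 7550 and 8624 without a TCR library, against 6050 with all. On that basis the call on Tgfbr2 was lost without TCR + TSLP library 1 (0.40, adjusted p = 0.116) or library 2 (0.29, adjusted p = 0.297).

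Skil, a corepressor that Smad signalling itself induces as a feedback brake, had 86.3 and 87.5 normalised reads with TSLP, against 56.5 and 57.7 without (log2 fold change 0.56, SE 0.09, adjusted p = 0.00182). Its relative Ski had 116 and 125 with TSLP, against 101 and 93.7 without, and missed the threshold (0.26, SE 0.09, adjusted p = 0.0511). Smad7, the inhibitor that removes the receptors, had 23.5 and 24.1 with TSLP, against 21.2 and 19.4 without (0.18, SE 0.11, adjusted p = 0.204). All 3 were higher in each TSLP library than in each TCR library, as were 41.4% of all genes tested. Without TCR library 1, where the spread comes from the closer TCR + TSLP pair alone, Ski was at 0.32 (adjusted p = 0.000318) and Smad7 at 0.25 (adjusted p = 0.0365), and without TCR library 2 Ski was at 0.22 (adjusted p = 0.0147).

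Among the genes of the latent complex, Itgav had 28.4 and 30.7 normalised reads with TSLP, against 23.3 and 18.8 without (log2 fold change 0.44, SE 0.13, adjusted p = 0.0246). With the spread taken from the TCR pair alone, the value was of similar size but not called without TCR + TSLP library 1 (0.48, adjusted p = 0.0635) or library 2 (0.39, adjusted p = 0.163). Itgb8 rested on 57 and 110 reads with TSLP and 34 and 31 without, and its interval was wide (0.45, 95% confidence interval -0.22 to 1.12, adjusted p = 0.238). Lrrc32 had 64.9 and 75.7 normalised reads with TSLP, against 72.8 and 69.4 without (-0.06, interval -0.30 to 0.18), and its groups overlapped. Tgfb1 had 415 and 414 with TSLP, against 454 and 443 without (-0.16, interval -0.35 to 0.03, adjusted p = 0.143), and its sign turned with library totals as the only scaling, at 0.07.

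**Figure D2:**
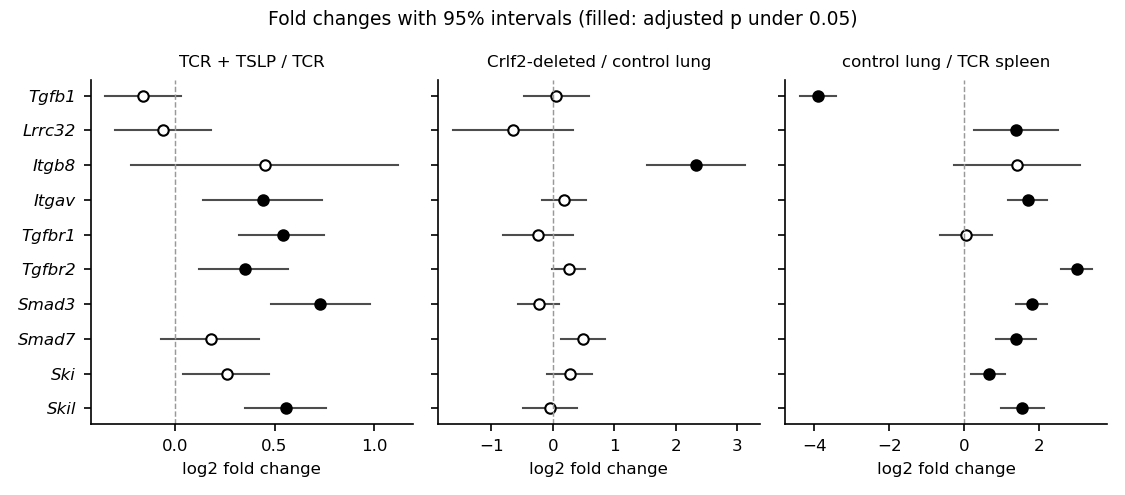
Log2 fold changes of the 10 genes with 95% confidence intervals in the 3 comparisons, with filled points for adjusted p under 0.05. With TSLP 5 genes lie to the right with filled points, in Crlf2-deleted lung only Itgb8 does, and between control lung and TCR spleen Tgfb1 and Tgfbr2 lie farthest from 0 on opposite sides.

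In this comparison the fold change of a gene moved with the length and the GC content of its transcript. The median log2 fold change was -0.76 for transcripts under 1000 bases and 0.20 to 0.21 for those of 4000 to 8000 bases. It was 0.31 in the fifth of genes with the lowest GC content and -0.25 in the fifth with the highest. The transcripts of the 5 members called are long, from 4788 bases for Tgfbr2 to 7066 for Skil. With the length trend removed, 4 of the 5 calls held and Tgfbr2 was at 0.13 (adjusted p = 0.277). With the trends on both removed, Smad3 was the only member called (0.57, adjusted p = 0.00543), Skil was at 0.19 (adjusted p = 0.0716), and Tgfbr1 and Itgav were each at 0.13 (adjusted p = 0.202 and 0.327). In a fit of all 4 groups together, which takes its spread from the lung libraries too, Smad3 was again the only member called (0.78, adjusted p = 0.0129). Of the markers of other cells, B cell markers summed to 75.2 and 76.4 normalised reads with TSLP, against 105 and 111 without, though Ms4a1 of that list was at a log2 fold change of 0.22. CD8 T and NK markers summed to 23.4 and 24.4 with TSLP, against 37.6 and 38.9 without. Platelet markers summed to 5.30 and 5.80, against 9.57 and 8.02. Ppbp of the platelet list rose (log2 fold change 1.71) on 44 reads with TSLP and 7 without. Endothelium markers summed to 41.2 and 39.1 with TSLP, against 35.1 and 36.6 without, myeloid markers to 5.51 and 5.50, against 5.69 and 5.09, lung epithelium markers to 13.1 and 11.7, against 12.1 and 14.3, and fibroblast markers to 0.873 and 1.03, against 1.77 and 1.23. Their part in these results was not tested.

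**Figure D3:**
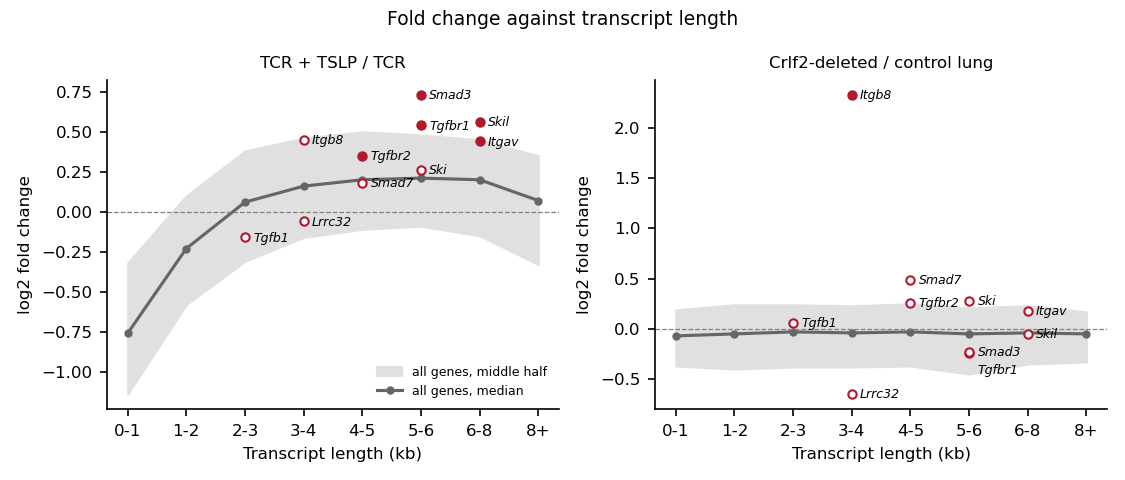
Log2 fold change of the members (points, filled where adjusted p was under 0.05) and of all genes tested (line for the median, shade for the middle 50%) by length of transcript in kilobases. In the TSLP comparison the median climbs with length to 0.21, and Smad3, Tgfbr1 and Skil lie above the shade of their length class; in the lung comparison the median is flat and Itgb8 stands farthest above it, at 2.33.

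Other genes of the pathway were followed in 6 lists, whose counts stand against 22.7% higher and 23.1% lower over all genes tested. Of 16 tested receptors and transducers, 9 rose with TSLP and 1 fell. They included Ipo7, an importin that carries Smads into the nucleus, at 172 normalised reads with TSLP and 50.0 without (log2 fold change 1.74, adjusted p = 0.000159). Traf6 and Tab2, which link receptors to the kinase TAK1, rose by 0.68 and 0.55, and Trim33, a Smad4 regulator, by 0.55. With the length and GC trends removed, 6 genes of this list were higher and 1 lower.

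Of 20 inhibitors and corepressors, 7 rose and 2 fell. The ubiquitin ligases Wwp1 and Smurf2, which act on receptors and Smads, rose by 0.78 and 0.74 to 27.4 normalised reads each with TSLP. Ldlrad4, which keeps Smads from the receptor, fell to 2.50, against 5.92 (-1.29, adjusted p = 0.00193), and the ubiquitin ligase Stub1 fell by 0.58. With the length and GC trends removed the list had 3 genes higher and 4 lower, so its balance depended on that choice.

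Of 16 genes that TGF-beta is known to induce, 9 rose and 1 fell. DESeq2 called 6 of them higher and 1 lower, and with the length and GC trends removed 8 were higher and 1 lower. In the fit of all 4 groups 1 of 18 was higher and 0 lower, when 541 of 14445 genes were higher. Bhlhe40, a transcription factor also induced by TCR signals, was at 171 normalised reads with TSLP and 81.0 without (1.03, adjusted p = 0.000226), and Cdkn1a, a cell cycle inhibitor, at 155 and 98.4 (0.61). Id3, an inhibitor of E proteins, fell to 12.5, against 21.7 (-0.85, adjusted p = 0.00178), a call that was lost with the length and GC trends removed (-0.30, adjusted p = 0.0701). Of 14 genes that TGF-beta is known to repress in T cells, 4 rose and 1 fell. Myc, a driver of growth, was at 386 with TSLP and 201 without (0.89), Gzmb, a cytotoxic granule protease, at 126 and 68.8 (0.82), and the quiescence factor Klf2 fell to 63.6, against 97.6 (-0.67). The counts of the repressed list, 4 and 1 of 14, are given beside those shares of all genes and not read as a result. On the log2(RPKM + 1) scale the calls on Klf2 (-0.28, adjusted p = 0.149) and on Stub1 (-0.20, adjusted p = 0.277) were lost. In the fit of all 4 groups Ipo7, Traf6, Tab2, Stub1, Ldlrad4, Bhlhe40, Myc and Gzmb were still called. Itgb1, Furin, Thbs1, Trim33, Wwp1, Smurf2, Cdkn1a, Id3, Klf2, Bmpr1a, Acvr1b and Acvr2b were not.

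Of 12 tested genes of the latent complex and its activation, 3 rose and 1 fell. The integrin chain Itgb1, which also pairs with the Itgav product, was at 155 normalised reads with TSLP and 95.3 without (0.66, adjusted p = 0.000745), and Furin, the protease that cuts the TGF-beta precursor, at 62.2 and 43.8 (0.46). The call on Furin was lost without TCR + TSLP library 2 (0.40, adjusted p = 0.122). Thbs1, a matrix protein that can activate latent TGF-beta, had 166 reads with TSLP and 22 without (1.96), also lost without TCR + TSLP library 2 (1.47, adjusted p = 0.17). Ltbp1, which binds the latent complex to the matrix, fell (-2.14, adjusted p = 0.0179) on 9 reads with TSLP and 22 without, a call lost by DESeq2 (adjusted p = 0.118) and without TCR + TSLP library 1 or 2 (-1.99 and -2.37, adjusted p = 0.276 and 0.236). The share of rises in this list was near that of all genes. Of 10 genes of the activin and BMP branch, 4 rose and 1 fell. The receptors Bmpr1a (10.0 normalised reads with TSLP and 3.63 without, 1.42) and Acvr1b (8.69 and 4.40, 0.93) were among those that rose. The receptor Acvr2b fell (-1.45, adjusted p = 0.015) on 39 reads with TSLP and 59 without, a call lost by DESeq2 (adjusted p = 0.066).

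**Figure D4:**
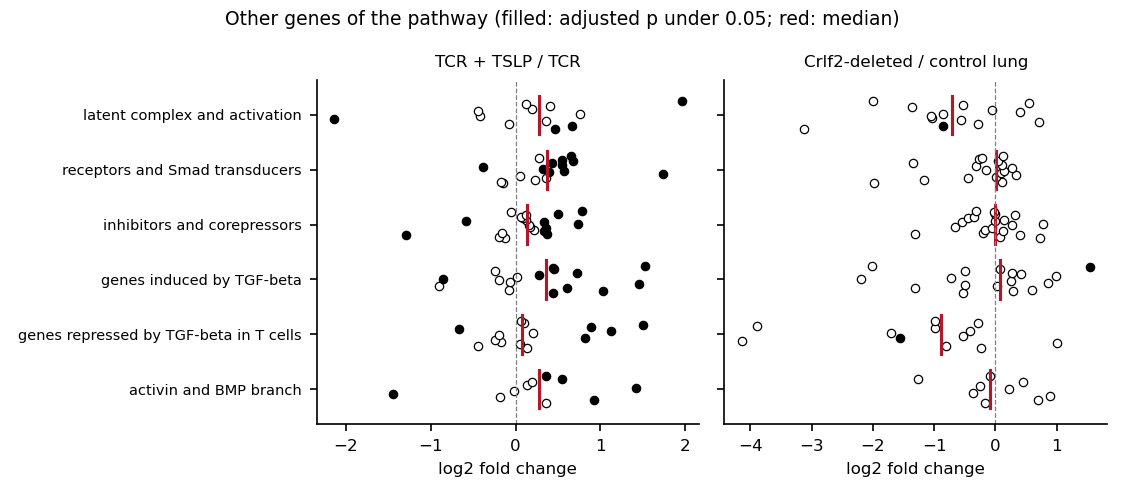
Log2 fold changes of the other genes of the pathway in 6 lists, with 1 point per gene, filled where adjusted p was under 0.05, and a red bar at the median of the list. The medians lie between 0.08 and 0.37 in the TSLP comparison, with filled points on both sides; in the lung comparison 3 points are filled in all 6 lists.

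The second comparison asked what loss of Crlf2 in Tregs does in the allergic lung. Itgb8, the integrin chain that gives its pair the ability to activate TGF-beta, was 5.03-fold higher in Crlf2-deleted Tregs, and no other member passed the test. That is 1 of 10 members called, against 1.79% of 12717 genes called in either direction and 0.771% called higher. The median log2 fold change was 0.12 over the members and -0.04 over all genes.

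Itgb8 had 17.7, 18.6 and 17.2 normalised reads in the Crlf2-deleted libraries, against 2.73, 5.03 and 3.33 in the control libraries. The deleted libraries were close to each other and all far above the controls. On the log2 scale the fold change was 2.33 (SE 0.35, 95% confidence interval 1.53 to 3.13, adjusted p = 0.0232). The control values rested on 22, 8 and 38 reads and the deleted values on 794 reads in all, so the control level was the less precise. The size stayed at 2.18 to 2.55 under the settings that start from reads, and was 0.98 on the log2(RPKM + 1) scale, which shrinks folds of low genes. The call was less firm than the size. It held without control 3 (2.34, adjusted p = 0.0166), the library that stood apart in its markers. It was lost without control 1 (2.18, adjusted p = 0.0608) or control 2 (2.55, adjusted p = 0.0504), and without Crlf2-deleted library 1, 2 or 3 (2.32, 2.29 and 2.35, adjusted p = 0.171, 0.0789 and 0.159). The same fits called 4 to 532 genes in all. With the replicate number as a block the value was 2.32 (adjusted p = 0.0682). Myeloid cells can also express Itgb8. The 3 Crlf2-deleted libraries had myeloid sums of 861 to 898 and 17.2 to 18.6 normalised reads of Itgb8. Control 1 and 2 had lower myeloid sums, 239 and 329, with 2.73 and 5.03 of Itgb8, and control 3 had a higher sum, 3974, with 3.33. The part of myeloid cells in the difference was not tested.

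The partner chain Itgav had 76.1, 85.2 and 66.0 normalised reads in Crlf2-deleted libraries, against 64.6, 74.1 and 60.2 in control libraries (log2 fold change 0.18, interval -0.18 to 0.54), with overlap. Lrrc32 spread more than any other member among the control libraries, at 281, 167 and 88.6, against 91.1, 151 and 105 in Crlf2-deleted libraries (-0.65, interval -1.63 to 0.33, adjusted p = 0.513). Without control 1 it was -0.14, and without control 3 it was -0.98 (adjusted p = 0.0743), so its size rested on which control libraries were used. Tgfb1 had 27.4, 36.1 and 27.9 in Crlf2-deleted libraries, against 23.1, 27.6 and 35.5 in control libraries (0.06, interval -0.47 to 0.59).

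Tgfbr2 had 331, 334 and 339.8 normalised reads in Crlf2-deleted libraries, against 289, 297 and 241 in control libraries (log2 fold change 0.26, SE 0.12, interval -0.01 to 0.53, adjusted p = 0.328). Smad7 had 72.9, 75.7 and 69.4 in Crlf2-deleted libraries, against 45.9, 59.1 and 49.0 in control libraries (0.49, SE 0.15, interval 0.14 to 0.85, unadjusted p = 0.0117, adjusted p = 0.161). Both were higher in every Crlf2-deleted library than in any control library, as was Itgb8. Such separation upwards was found for 11.3% of all genes tested, and neither gene passed over all genes by the count test. On the log2(RPKM + 1) scale, where the median of all genes also moved to 0.21, both were called (Tgfbr2 0.65, adjusted p = 0.0387, and Smad7 0.68, adjusted p = 0.0323).

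The other members overlapped between the lung groups. Smad3 had 93.3, 73.0 and 76.4 normalised reads in Crlf2-deleted libraries, against 96.4, 89.8 and 94.7 in control libraries (log2 fold change -0.23, interval -0.56 to 0.10). Tgfbr1 had 44.5, 43.6 and 44.8, against 39.2, 75.4 and 43.8 in control libraries (-0.24, interval -0.81 to 0.33), where the shallow control 2 was the high value. Ski averaged 181 ± 16.3 in Crlf2-deleted libraries, against 147 ± 25.9 in control libraries (0.28, interval -0.09 to 0.64), and Skil 160.1, 168 and 147, against 166, 204 and 119 in control libraries (-0.05, interval -0.49 to 0.39). These intervals leave room for changes in either direction.

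Of the other genes of the pathway, 3 were called by edgeR in the lung, in 6 lists with 9 to 20 tested genes each. Across all 12717 genes tested, edgeR called 227, or 1.79%. The counts per list are given beside that share and not read as a result. Furin fell to 178 normalised reads in Crlf2-deleted Tregs, against 319.6 in control Tregs (log2 fold change -0.86, SE 0.16, adjusted p = 0.0411), the only called gene of 14 in the latent complex list. Rgs16, a TGF-beta-induced regulator of G protein signals, was at 124 in Crlf2-deleted and 43.0 in control Tregs (1.54, SE 0.30, adjusted p = 0.0484), the only one of 17 induced genes. Gzmb fell to 64.8 in Crlf2-deleted Tregs, against 188 in control Tregs (-1.56, SE 0.16, adjusted p = 0.00762), the only one of 12 repressed genes. None of the 17 receptors and transducers, 20 inhibitors and corepressors or 9 activin and BMP genes was called by edgeR. At an unadjusted p under 0.05 they had 0, 1 and 1 genes higher and 1, 3 and 1 lower, against 857 and 1160 of all 12717 genes. DESeq2 called 0, 0 and 1 of them, and 867 genes in all. In the latent complex list DESeq2 called 1 gene higher and 1 lower. It called 2 and 1 of the induced and 1 and 2 of the repressed genes. The calls on Furin and Rgs16 were each lost in 5 of the 6 fits that left out a library, with adjusted p up to 0.19 and 0.238, and that on Gzmb without Crlf2-deleted library 1 (-1.44, adjusted p = 0.0719). Furin held without control 3, and Rgs16 held without Crlf2-deleted library 2. Furin was also lost with library totals (adjusted p = 0.0804), on the log2(RPKM + 1) scale (0.215), with summed transcripts (0.0502) and with the replicate block (0.0752). Rgs16 was also lost with summed transcripts (adjusted p = 0.0714), with length and GC trends removed (0.0585) and with the block (0.149).

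**Figure D5:**
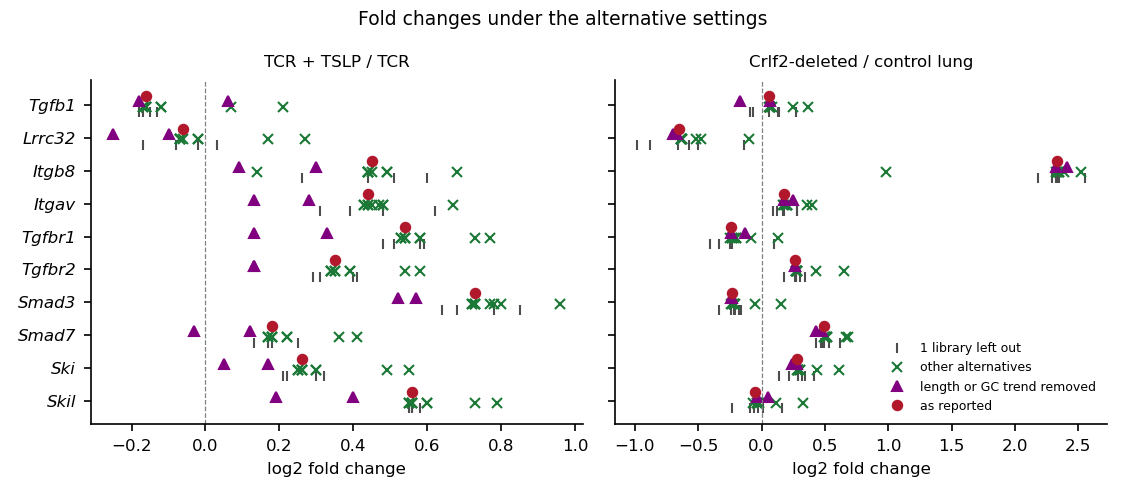
Log2 fold changes of the 10 genes as reported (circles), with trends on length or GC content removed (triangles), under other alternatives (crosses) and with 1 library left out (ticks). In the TSLP comparison the triangles lie left of the circles for every gene but Tgfb1, with Smad3 at 0.52 and 0.57 against 0.73. In the lung comparison Itgb8 stays beyond 2 in every setting but the log2(RPKM + 1) scale, at 0.98.

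Control lung and TCR spleen Tregs differ in tissue, culture, stimulation, the OVA immunization stated for the lung mice, the Cre transgene and libraries. These cannot be told apart, so their comparison only describes where the members stand. Tgfb1 was 14.9-fold lower in control lung Tregs, while Tgfbr2 was 8.04-fold higher. In all, 7 members were higher and 1 lower, against 25.5% and 26.3% (51.8% in all) of 13325 genes tested. Tgfb1 averaged 28.7 ± 6.30 normalised reads in control lung and 449 ± 7.77 in TCR spleen (log2 fold change -3.90, SE 0.21, adjusted p = 2.01e-05). Tgfbr2 averaged 276 ± 30.5 in control lung and 35.5 ± 1.70 in TCR spleen (3.01, SE 0.18, adjusted p = 2.57e-05). The order of Tgfb1 over the groups was TCR, TCR + TSLP, Crlf2-deleted lung and control lung, and the lung groups overlapped.

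Smad3 (93.6 ± 3.38 in control lung and 27.9 ± 2.88 in TCR spleen, log2 fold change 1.80), Itgav (66.3 ± 7.12 and 21.1 ± 3.21, 1.70), Skil (163 ± 42.4 and 57.1 ± 0.842, 1.55) and Smad7 (51.3 ± 6.88 and 20.3 ± 1.25, 1.38) were also higher in control lung. Lrrc32 (179 ± 96.5 in control lung and 71.1 ± 2.44 in TCR spleen, 1.38, adjusted p = 0.0465) and Ski (147 ± 25.9 and 97.2 ± 4.96, 0.65, adjusted p = 0.0263) were nearer the threshold. Both of these calls were lost without control 1 or 2, and without either TCR library, where the control lung libraries alone give the spread and 3584 or 3467 genes were called against 6907, with adjusted p of 0.0521 to 0.229 for Lrrc32 and 0.0557 to 0.169 for Ski. Of 15 alternatives each, Lrrc32 lost its call in 7 and Ski in 5, and Ski turned sign in 1 more. With the length and GC trends removed, 5 members were higher in control lung and 1 lower. Tgfbr1 did not differ detectably (52.8 ± 19.7 and 51.9 ± 1.79, interval -0.64 to 0.73). Itgb8 averaged 3.69 ± 1.19 in control lung and 1.40 ± 0.0520 in TCR spleen (1.40, interval -0.27 to 3.08, adjusted p = 0.138). On the log2(RPKM + 1) scale, where the median of all genes was -0.45, 3 members were higher and 2 lower, and Tgfbr1 was lower in control lung (-0.63, adjusted p = 0.0302).

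The other genes of the pathway are set against 25.5% higher and 26.3% lower over all genes. Of 15 tested genes of the latent complex and its activation, 10 were higher in control lung and 0 lower, of 17 receptors and transducers 4 were higher and 7 lower, and of 20 inhibitors and corepressors 6 were higher and 7 lower. Of 13 genes of the activin and BMP branch, 4 were higher and 1 lower. Of 14 genes that TGF-beta is known to repress in T cells, 4 were higher and 3 lower. The higher included the migration receptor S1pr1 (248 normalised reads in control lung and 16.9 in TCR spleen, log2 fold change 3.93) and Gzmb (188 and 68.8, 1.51), and the lower the cell cycle phosphatase Cdc25a (11.4 and 97.2, -3.05). Of 17 genes that TGF-beta is known to induce, 11 were higher in control lung and 0 lower, with a lowest fitted log2 fold change of 0.28. These counts depended on the scale. On log2(RPKM + 1), 1179 of all genes were higher in control lung and 6628 lower. There the latent complex list had 3 higher and 0 lower, and the induced list 7 and 0. Receptors and transducers had 1 higher and 9 lower, and inhibitors and corepressors 4 and 12. The activin and BMP branch had 1 and 3, and the repressed list 1 and 4. Itgae, the integrin chain of tissue-resident T cells, was at 327 normalised reads in control lung and 4.60 in TCR spleen (log2 fold change 6.19, adjusted p = 3.17e-05). The transcription factors Ahr (109 and 10.8, 3.40) and Junb (2888 and 381, 2.98) and the ATP receptor P2rx7 (132 and 11.5, 3.56) were also higher in control lung. Lung epithelium markers summed to 15044 to 72748 normalised reads in control lung and 12.1 to 14.3 in TCR spleen, where Sftpc, Scgb1a1, Krt8 and Sftpa1 had no reads, and myeloid markers to 239 to 3974 and 5.09 to 5.69. The part of these cells in the differences was not tested.

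The genes most like Itgb8 and Tgfb1 over the 10 libraries were found by the mean absolute difference of log2 levels, each gene centred on its own mean, among 10438 genes with a mean level of at least 5. For Itgb8 they were Sv2c (0.25), Il10 (0.32), Pde4a (0.35), Zfp949 (0.36) and Hspa2 (0.36). Il10, an anti-inflammatory cytokine of Tregs, averaged 188 normalised reads in Crlf2-deleted lung, 39.8 in control lung, 16.1 with TSLP and 10.4 with TCR alone, the same order as Itgb8. For Tgfb1 they were Tpi1 (0.15), Khsrp (0.16), Larp1 (0.18), Hirip3 (0.19) and Hnrnpd (0.19). Tpi1, an enzyme of glycolysis, averaged 124 in both lung groups, 1575 with TSLP and 1624 with TCR alone. These are descriptions over libraries that share tissue and culture.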

How the data were processed

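Per the file headers, each deposited table gives whole-number counts of reads for RefSeq transcripts. Beside them stands RPKM, which the authors computed from reads and transcript length. RPKM also divides by a library total, worked out here from the counts, lengths and RPKM. Reads with 1 transcript per symbol were 37.8% to 44.5% of that total in spleen libraries. In lung libraries they were 14.9% to 23.6%. The part of this difference in the results on the RPKM scale was not tested. Tools named in the submitters' processing notes are TopHat2 2.2.1, Bowtie2 2.2.6, bedtools 2.25.0, SAMtools 0.1.8 and edgeR, with the mm10 (GRCm38) build. The sources used here do not say how reads were counted, by strand or when mapped to several places. Per the labels' protocols, 100 to 500 ng of RNA went into spleen libraries by a stranded, ribosome-depleting kit, read as 50 bp single ends. The lung kit is not named separately.

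Of 31682 transcript rows, each symbol kept the one with the most reads on average. Skil had 3 rows and Tgfbr2 had 2, which share nearly all reads. In the GENCODE annotation 0 of the 10 members' transcripts overlapped exons of another gene. The test was edgeR 4.0.16 (R 4.3.3) on counts (TMM, filterByExpr with a minimum count of 10, robust, two-sided) within each comparison, with Benjamini-Hochberg adjustment over all genes tested. The SE was the log2 fold change divided by the root of F. P-values reflect the spread between these libraries alone, which may be technical. All replicate pairs differed by more than sampling noise (chi-square per degree of freedom of 5.80 or more).

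Alternatives were median-of-ratios factors, library totals, no filter, DESeq2 1.42.0, limma 3.58.1 on log2(RPKM + 1), all 4 groups in 1 fit, summed transcripts, removal of loess trends (span 0.3) on length and GC content, a replicate block and leaving out each library. The test was tried on simulated counts first. The members, lists and tests were chosen with earlier results of these data known. Named genes are all members, Crlf2, Foxp3, up to 4 genes of each list by p among those called, and the 5 genes most like Itgb8 and Tgfb1.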

Additional observations from a re-analysis of the deposited data

How the results depend on the processing

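Of the members called, 5 with TSLP, 1 in Crlf2-deleted lung and 8 in control lung against TCR spleen, limma on log2(RPKM + 1) called 8, 3 and 5. With TSLP, all 4 groups in 1 fit and removal of the length and GC trends each called 1, and fits without 1 library called 3 to 7, against 0 to 1 in Crlf2-deleted lung and 6 to 8 in control lung against TCR spleen. Between libraries of the same replicate number, deviations from the group mean correlated at -0.13 for TSLP and -0.15 to 0.08 in lung. With 2 libraries per group the crossed value is bound to be 0.13, so these values do not settle whether the samples were paired. With the replicate number as a block 5, 0 and 8 members were called. The 8 came from a fit without control 3, which has no TCR library of its number, and 13290 genes were tested there. A crossed pairing in the TSLP comparison, added after seeing the data, called 6 members and 7107 genes. Some values turned sign. With TSLP, Tgfb1 was 0.07 with library totals, 0.21 on RPKM and 0.06 with length and GC trends removed, Lrrc32 was 0.17 with totals, 0.27 on RPKM and 0.03 without TCR + TSLP library 1, and Smad7 was -0.03 with the length trend removed. In Crlf2-deleted lung, Tgfb1 was -0.17 with length and GC trends removed, -0.09 without control 1 and -0.07 without Crlf2-deleted library 2. Tgfbr1 was 0.13 on RPKM and -0.41 to 0.10 over fits without 1 library (0.10 without control 2), and Smad3 was 0.15 on RPKM. Skil was 0.11 with totals, 0.33 on RPKM, 0.05 with length and GC trends removed, and -0.23 to 0.16 over fits without 1 library (0.16 without control 2, 0.01 without Crlf2-deleted library 3). In control lung against TCR spleen, Tgfbr1 was -0.03 with no filter, -0.63 on RPKM, -0.01 with all 4 groups and -0.26 without control 2, and Ski was -0.25 on RPKM. Over all genes with TSLP, calls were 2999 higher and 3051 lower, 5059 and 2000 with totals (median of all genes 0.24), 5681 and 1249 on RPKM (median 0.20), 1356 in all with all 4 groups, 3761 or 3212 without TCR + TSLP library 1 or 2, and 7550 or 8624 without TCR library 1 or 2. In Crlf2-deleted lung they were 98 and 129, 137 and 57 with totals (median 0.14), 762 and 94 on RPKM, 32 and 89 with the block, 867 in all with DESeq2, 873 with all 4 groups, and 134 with summed transcripts. In control lung against TCR spleen they were 3401 and 3506, 1179 and 6628 on RPKM, and 3584 or 3467 in all without TCR library 1 or 2. The causes were not tested. Control 2 had 1439675 reads in all and 8 of Itgb8, so its level of Itgb8 is the least precise.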
